A study of Homo sapiens with 10 samples.

Results

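The genes of glycolysis, gluconeogenesis and the entry of pyruvate into the mitochondrion were followed through the hepatic differentiation of the H1 cell line, which consists of human embryonic stem cells (hESCs). The members were chosen by name as 39 genes that encode the enzymes of these pathways and their kinases, and 33 of them were found among the 12125 genes of the deposited table. The symbols PKM, PKLR, PCK1, FBP1, G6PC and GYS2 were not matched and are not analysed here, so that the kinase step between phosphoenolpyruvate and pyruvate and the cytosolic and fructose bisphosphatase steps of gluconeogenesis have no member in what follows. RNA was sequenced from 1 bulk library per sampled day, daily up to day 3, every other day between days 5 and 13, and on day 21. Undifferentiated cells of day 0 were kept on Matrigel in mTeSR1. Days 1 to 3 had Activin A at 100 ng per ml in RPMI with B27 lacking insulin, days 5 and 7 had FGF4 and BMP2 (30 and 20 ng per ml) in RPMI with insulin-containing B27, days 9 and 11 had HGF and KGF at 20 ng per ml each in that same medium, and days 13 and 21 are labelled with Oncostatin M (OSM) at 20 ng per ml, which is given in a hepatocyte culture medium. The stated steps of 3, 4, 6 and 8 days would make day 13 the last day with HGF and KGF, against its OSM label. All libraries come from this 1 line, and none is an untreated control of a later day.

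Glycolysis splits glucose into pyruvate and yields ATP without oxygen. Pluripotent stem cells are known for a high flux of glucose to lactate, whereas hepatocytes can also run the pathway backwards, from pyruvate to glucose, and store glucose as glycogen. Many steps are catalysed by 2 or more isozymes, encoded by separate genes with different tissue ranges, and pyruvate either is reduced to lactate by lactate dehydrogenase or enters the mitochondrion through the pyruvate dehydrogenase complex, which the PDK kinases switch off. Several glycolytic genes are textbook targets of the hypoxia-inducible factors.

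The deposited values are GC-normalized scores rounded to whole numbers, neither counts nor levels per length, so each gene was compared with itself between days and no gene with another. The libraries have nearly the same distribution, with totals between 2330948 and 2362740, which do not show how deeply a library was sequenced, and the methods state only an average depth over the samples. The highest values fall into 10 narrow levels that all libraries share, with 18734 at the top. Such a value gives the level of a gene among the highest genes and not an amount, and a gene at 18734 cannot rise further. Of the 33 members, 8 reached these levels on at least 1 day (ALDOA, TPI1, GAPDH, PGK1, PGAM1, ENO1, LDHA and LDHB). A gene was counted as higher or lower between 2 days, and is said here to have risen or fallen, when log2(value + 1) differed by at least 1 (2-fold) and the larger value was at least 50. With 1 library per day there is no replicate check, so no p-value is given and every difference is a description of these libraries. Days 9 and 11, which share a medium, are the successive libraries that differed least. Between them 0 of the 28 members with a value of at least 50 rose (1.04% of all genes tested did) and 0 fell (0.568% of all genes), and the median size of the log2 difference was 0.12 for the members and 0.18 for all genes. Days 5 and 7 also share a medium, and between them 5 of 28 members rose (7.70% of all genes) and 2 fell (6.35%). The median sizes there were 0.39 and 0.35. They were 0.38 and 0.27 between days 1 and 2, and 0.28 and 0.25 between days 2 and 3. Bulk libraries cannot tell fewer cells of a type from less RNA per cell.

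The markers followed the labels. The hESC gene POU5F1 went from 4861 on day 0 to 5 on day 21, and ALB, the albumin gene, from 4 to 4866. Other cell types were also marked as the course went on. The summed values of 5 of 5 stromal markers, among them COL1A1 and DCN, were 324 on day 0, 233 on day 3, 18364 on day 13 and 20361 on day 21, those of 5 of 5 red blood cell markers 2, 3, 4319 and 2098, those of the 2 macrophage markers found of 5 (PTPRC and CD68) 39, 0, 50 and 324 (PTPRC being listed at 0 from day 3 to day 13), and those of the 2 muscle markers found of 5 (ACTC1 and TTN) 126, 193, 1281 and 284. The values of POU5F1 on day 0, ALB on day 21, and COL1A1 and DCN on days 13 and 21 are shared top levels and not amounts. The stromal sums of days 13 and 21 thus hold such levels. All these sums changed over the same intervals as the members below, and their part in the results was not tested.

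From day 0 to day 3, as hESCs became definitive endoderm, 15 of 30 members tested fell and 1 rose. Of all genes, 9.07% fell and 11.1% rose. The median log2 difference was -0.99 for the members and -0.06 for all genes tested. All 3 genes of hexose entry fell, as did 7 of the 9 genes tested from aldolase to enolase and both lactate dehydrogenase genes. At the phosphofructokinase step 1 of 6 genes fell, PFKP, and PFKL and PFKFB3 differed by 0.41 and 0.10. The kinase PDK1 was the gene that rose. Of the 15 falls, 7 involve a value at the shared top levels, and without genes at these levels 8 fell.

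Much of this change was present after a single day. Between day 0 and day 1, a comparison chosen after the values were seen, 8 of 30 members fell (4.71% of all genes) and 1 rose (4.01%). The genes that fell were HK2, PFKFB4, ALDOC, GAPDH, PGK1, ENO1, ENO2 and LDHA, 4 of them outside the top levels. PGK1, which encodes the phosphoglycerate kinase of the first ATP-yielding step, went from 6496 to 1279, and ENO2, the neuronal enolase gene, from 500 to 96, 5.21 times lower. The change of medium and the addition of Activin A fall on the same day and cannot be told apart.

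**Figure D1:**
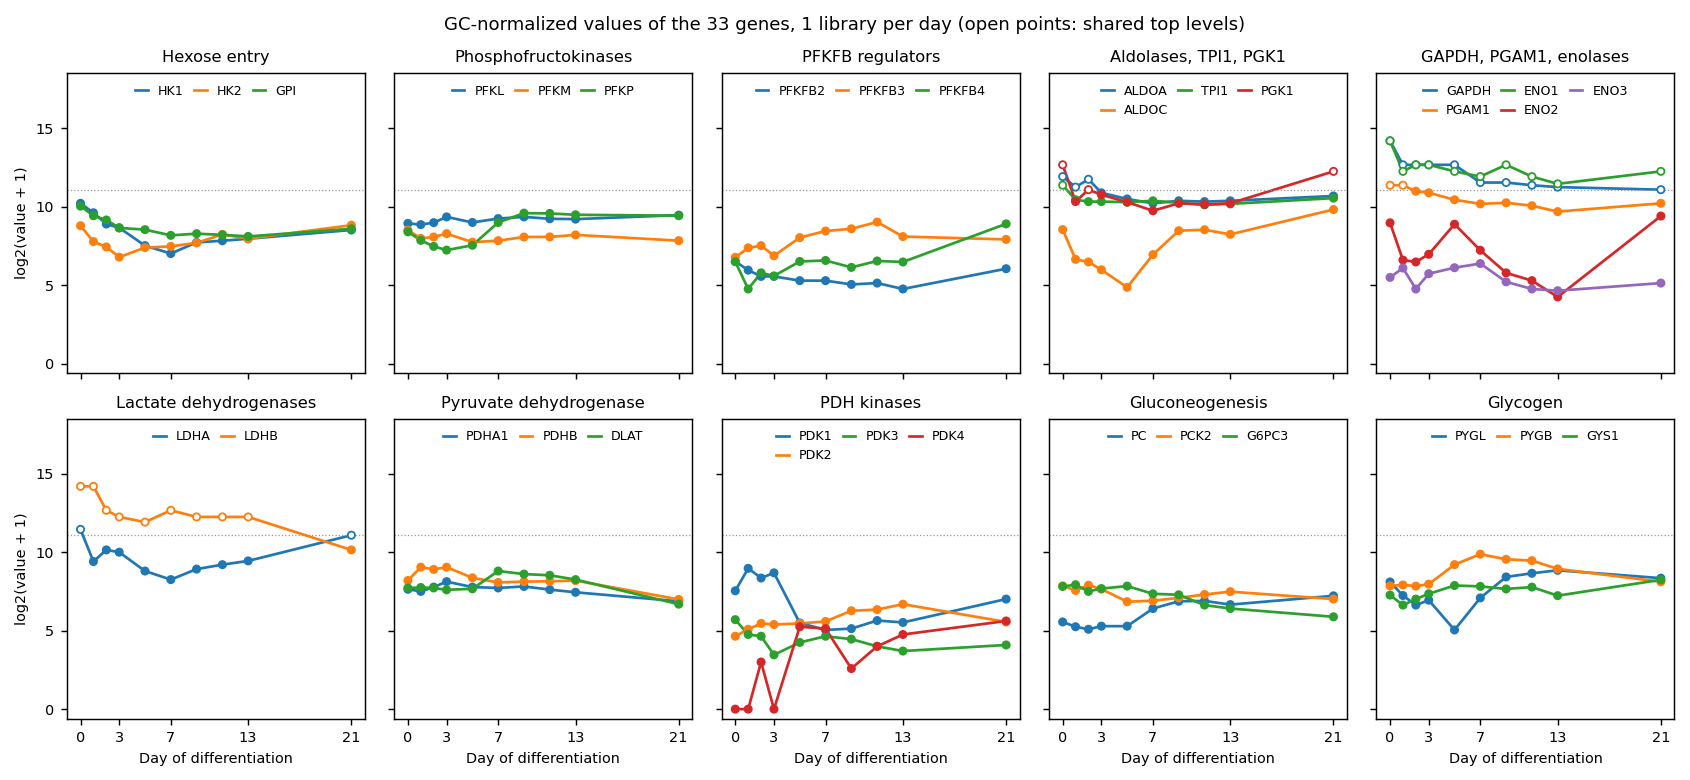
log2(value + 1) of the 33 genes (y axis) against the day of differentiation (x axis), 1 point per library, in panels by step of the pathway. Open points lie at the shared top levels, above the dotted line, where a change is a move between levels. PGK1, LDHA and PDK1 have their lowest values on day 7, and ENO2 has its lowest value on day 13.

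Hexokinases trap glucose in the cell by phosphorylating it. HK1, the ubiquitous form, had values of 1185 on day 0, 780, 474 and 402 on days 1, 2 and 3, 182 and 128 on days 5 and 7, 210, 226 and 247 on days 9, 11 and 13, and 364 on day 21. It was thus highest in hESCs, lowest on day 7 and 3.26 times lower on day 21 than on day 0 (log2 difference of -1.70). HK2, the inducible form, fell from 440 on day 0 to 109 on day 3, 4.04 times lower, and then climbed through 167, 176, 206, 299 and 248 on days 5 to 13 to 450 on day 21, close to its value on day 0 (log2 difference of 0.03). GPI, the isomerase that follows, fell from 1046 to 399 over the first 3 days and stayed between 274 and 399 to day 21.

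The phosphofructokinases catalyse the committed step of glycolysis, and their 3 genes took separate courses. PFKL, the liver form, stayed between 462 and 703 throughout, and PFKM, the muscle form, between 212 and 362, so that neither changed 2-fold in any of the 4 planned comparisons. PFKP, the platelet form, had values of 336 on day 0, 230, 176 and 149 on days 1 to 3, 185 on day 5, 508 on day 7, 768, 758 and 714 on days 9, 11 and 13, and 686 on day 21. Its low was thus on day 3 and its high on day 9, and its rise from day 3 to day 13 was 4.79-fold (log2 difference of 2.25). Within the FGF4 and BMP2 step alone it went from 185 to 508.

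The PFKFB enzymes make and remove the sugar bisphosphate that activates phosphofructokinase. PFKFB3, the inducible form, rose from 116 on day 3 to 272 on day 13, with its highest value on day 11 (518), and was 240 on day 21. PFKFB4 had values of 89 on day 0, 26, 54 and 47 on days 1 to 3, between 69 and 94 from day 5 to day 13, and 478 on day 21. Its day 21 value stood above the other 9 libraries and was 5.43 times that of day 13 (log2 difference of 2.43). PFKFB2, the form known from heart and liver, rose from 26 on day 13 to 65 on day 21, but against day 11 (34) in place of day 13 the difference was below 2-fold.

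In the middle of the pathway, aldolase splits the sugar and the 3-carbon products are carried to phosphoenolpyruvate. Here GAPDH, ENO1, PGAM1 and ALDOA were lower on day 21 than on day 0. TPI1 differed by less than 2-fold between these days (log2 difference of -0.82). GAPDH, a glycolytic dehydrogenase that the study also used as its reference gene in qPCR, stood at the top level (18734) on day 0, at the second (6493 or 6494) from day 1 to day 5, at the sixth (2968) on days 7 and 9, then at 2636 and 2426 on days 11 and 13, and at the lowest of the shared levels on day 21. Its level was lower at each of these stages than at the one before, from the top level to the tenth. ENO1, the ubiquitous enolase gene, also left the top level after day 0 and moved without order between 2799 and 6498 afterwards, with 4861 on day 21. PGAM1, the phosphoglycerate mutase gene, was at 2638 on days 0 and 1 and at 1890 on day 3, 822 on day 13 and 1185 on day 21. ALDOA fell from 3861 on day 0 to 1887 on day 3 and was 1638 on day 21, and TPI1 fell from 2636 to 1278 and was 1490. Read assignment adds a limit for some of these genes. GENCODE release 29 names 62 pseudogenes of GAPDH, 13 of PGAM1, 6 of LDHA, 4 each of ENO1 and TPI1 and 3 of LDHB, and reads can be split between them and the parent gene.

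ALDOC, the brain-type aldolase gene, had a course of its own. It had values of 371 on day 0, 99, 88 and 62 on days 1 to 3, 28 on day 5, 122 on day 7, 353, 368 and 300 on days 9, 11 and 13, and 901 on day 21. It was 5.98 times lower on day 3 than on day 0 (log2 difference of -2.56) and rose in both later intervals, by 2.26 from day 3 to day 13 and by 1.58 from day 13 to day 21. ENO3, the muscle enolase gene, stayed between 24 and 82 and thus near the minimum of 50, and its fall from day 3 (52) to day 13 (24) was just past 2-fold.

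Pyruvate kinase was not found under its current symbol, but its Ensembl identifier ENSG00000067225 is listed under the older name PKM2. It is given beside the members, since the rule matched symbols alone. This identifier is that of the gene and not of the M2 splice form, and which transcripts the value covers is not stated. It had values of 18734 on day 0, 3431 and 3862 on days 1 and 2, 18734 on day 3, 2798 on day 5, between 1436 and 1556 from day 7 to day 13, and 2022 on day 21. The gene was thus at the top level on days 0 and 3 and below the shared levels from day 7 on.

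The lactate dehydrogenase genes moved apart at the end of the course. LDHA (ENSG00000134333) encodes the subunit that favours the making of lactate, and LDHB (ENSG00000111716) the subunit that prevails in heart. LDHA had values of 2798 on day 0, 676, 1130 and 1022 on days 1 to 3, 444 and 304 on days 5 and 7, 484, 589 and 695 on days 9, 11 and 13, and 2165 on day 21. LDHB had 18734 on days 0 and 1, 6496 and 4858 on days 2 and 3, 3862 and 6496 on days 5 and 7, 4858 on days 9, 11 and 13, and 1130 on day 21. Between day 13 and day 21 LDHA rose (log2 difference of 1.64) and LDHB fell (-2.10), the day 21 value of LDHB being its lowest and under the shared levels. Over the whole course the log2 ratio of LDHB to LDHA changed by -3.68, a value that rests on top levels of both genes on day 0 and of LDHA on day 21.

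The neuronal enolase gene stayed under the shared top levels on every day. ENO2 (ENSG00000111674) had values of 500 on day 0, 96, 88 and 124 on days 1 to 3, 470 on day 5, 148 on day 7, 54, 38 and 18 on days 9, 11 and 13, and 675 on day 21. It therefore had highs on day 0, day 5 and day 21, and its low on day 13. The rise from day 13 to day 21 was 37.5-fold (log2 difference of 5.15), the largest among the members with a value of at least 50 in the 4 planned comparisons, and with day 11 in place of day 13 it remained past 2-fold. ENO1 was at a shared top level on every day, so its differences are moves between levels and their sizes are not set against those of ENO2. Over days 0 to 3, 3 to 13 and 13 to 21, ENO1 moved in the same direction as ENO2, with log2 differences of -1.53, -1.21 and 0.80. Between successive libraries it did not always do so. ENO1 went from 6498 on day 3 to 4861 on day 5, while ENO2 went from 124 to 470.

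Isozyme ratios were compared between days, since gene length cancels in the change of a ratio. Of 14 pairs of genes for the same enzyme activity, 9 could be computed, 4 lacked a gene in the table, and PDK4 with PDK1 was left out because PDK4 was listed at 0 on day 0. From day 0 to day 21 the log2 ratio rose by at least 1 in 5 pairs and fell by at least 1 in 2. Between these days 23.9% of all genes rose and 26.4% fell, so ratios of unrelated genes can change as far. The share among other gene pairs was not computed. HK2 gained on HK1 by 1.73, a shift in place from day 5 (1.30) onwards, and PFKFB4 gained on PFKFB3 by 1.27 after a change of -1.34 on day 13. ALDOC gained on ALDOA by 2.51 and ENO2 on ENO1 by 2.38, values that rest on moves between shared top levels, with ALDOA at one on day 0 and ENO1 at one on both days. ENO3 to ENO1 changed by 1.58 and rests on values of ENO3 under 50. PFKM to PFKL changed by -1.20, whereas PFKP to PFKL changed by 0.50. Between days 9 and 11, the successive libraries that differed least, the sizes of the changes of these 9 ratios ranged from 0.02 to 0.43.

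**Figure D2:**
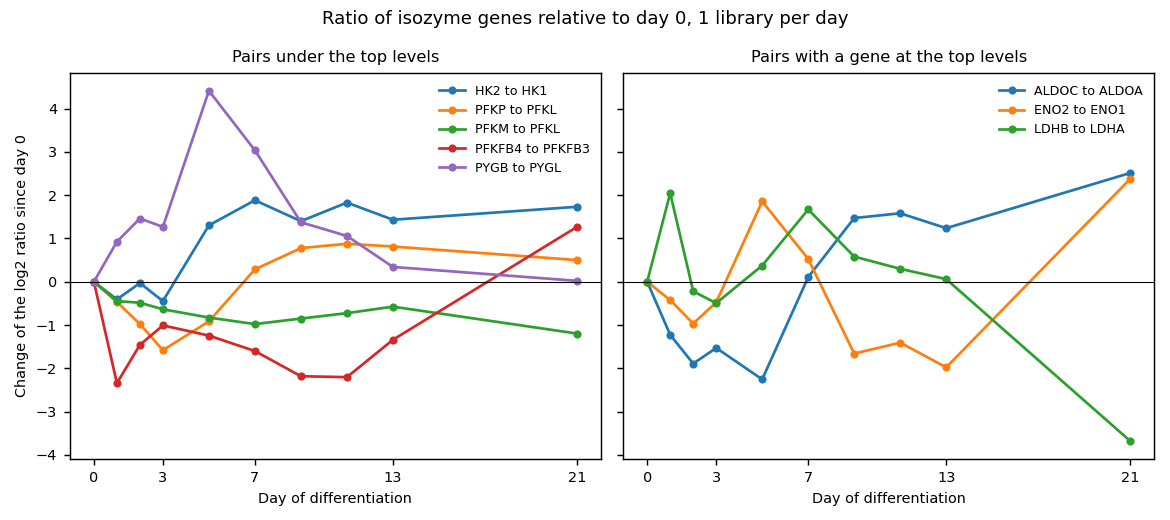
Change of the log2 ratio of 2 isozyme genes since day 0 (y axis) against the day of differentiation (x axis), 1 point per library; the left panel holds pairs whose genes stay under the shared top levels and the right panel pairs with a gene at those levels. LDHB to LDHA ends at -3.68, ALDOC to ALDOA at 2.51 and ENO2 to ENO1 at 2.38, while PYGB to PYGL passes 4.41 on day 5 and returns to 0.02.

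The pyruvate dehydrogenase complex turns pyruvate into acetyl-CoA. The 3 members that encode its subunits had their lowest values on day 21. PDHB, a subunit of the dehydrogenase component, was 292 on day 0, between 478 and 527 on days 1 to 3, between 268 and 329 from day 5 to day 13, and 126 on day 21. DLAT, the acetyltransferase component, was between 193 and 214 up to day 5, 444 on day 7, 388, 368 and 304 on days 9 to 13, and 102 on day 21. In the last interval the log2 difference was -1.20 for PDHB and -1.57 for DLAT, and PDHA1, the other subunit, went from 173 to 116 (-0.57). PDHX, a further component that is no member and was chosen after its values were seen, went from 139 on day 0 to 180 on day 13 and was highest on day 21 (193).

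The kinases that inactivate this complex differed in their courses. PDK1 had values of 185 on day 0, 500, 326 and 410 on days 1 to 3, 44 and 32 on days 5 and 7, 34, 49 and 45 on days 9 to 13, and 128 on day 21. It was thus high under Activin A, 9.11 times lower on day 13 than on day 3 (log2 difference of -3.16), and rose again in the last interval (1.49). PDK2 rose from 41 on day 3 to 102 on day 13 and was 46 on day 21. PDK3 fell from 51 on day 0 to 10 on day 3 and was at 26 or below on every later day. PDK4, a kinase known to be induced by fasting in liver, was listed at 0 on days 0, 1 and 3 and had 7 on day 2, 37 and 34 on days 5 and 7, 5, 15 and 26 on days 9, 11 and 13, and 48 on day 21, all under the minimum of 50.

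Of the gluconeogenic genes in the table, pyruvate carboxylase was the gene that rose. PC, which makes oxaloacetate from pyruvate, had values between 33 and 46 up to day 5, 84 on day 7, 116, 118 and 100 on days 9, 11 and 13, and 148 on day 21. Its rise was 2.63-fold from day 3 to day 13, and the value on day 21 was 3.22 times that on day 0 (log2 difference of 1.66). PCK2, the mitochondrial carboxykinase, was between 114 and 237 and changed less than 2-fold in the 4 planned comparisons. G6PC3, the ubiquitous glucose-6-phosphatase, fell from 204 on day 3 to 84 on day 13 and 58 on day 21, and was 3.86 times lower on day 21 than on day 0. The enzymes PCK1, FBP1 and G6PC that are usually taken as hepatic markers of this pathway are among the genes not analysed here.

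Glycogen phosphorylase frees glucose from glycogen. PYGL, the liver form, had values of 274 on day 0, 150, 98 and 122 on days 1 to 3, 32 on day 5, 135 on day 7, 342, 402 and 459 on days 9, 11 and 13, and 324 on day 21. PYGB, the brain form, had 230, 240, 228 and 248 on days 0 to 3, 590 and 937 on days 5 and 7, 746, 704 and 489 on days 9, 11 and 13, and 276 on day 21. The low of PYGL on day 5 thus preceded the high of PYGB on day 7, and both ended near their values on day 0. PYGL rose from day 3 to day 13 (log2 difference of 1.90) and PYGB reached 0.98, just under 2-fold. GYS1, the glycogen synthase gene of muscle and most other tissues, was between 98 and 234 up to day 13 and 301 on day 21, a difference of 1.01 from day 13 that fell below 2-fold against day 11.

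From day 3 to day 13, the members split evenly between the directions. Of 30 tested, 7 rose (16.5% of all genes) and 7 fell (15.9%), with a median log2 difference of -0.16 against -0.08 for all genes. Those that rose were HK2, PFKP, PFKFB3, ALDOC, PDK2, PC and PYGL, and those that fell were GAPDH, PGAM1, ENO1, ENO2, ENO3, PDK1 and G6PC3.

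From day 13 to day 21, 8 of 30 members rose (8.57% of all genes) and 4 fell (9.08%). The 8 were PFKFB2, PFKFB4, ALDOC, PGK1, ENO2, LDHA, PDK1 and GYS1, and the 4 were LDHB, PDHB, DLAT and PDK2. The median log2 difference was 0.34 for the members and -0.05 for all genes. Taking day 11 for day 13, for which no share of all genes was computed, left 6 that rose, without PFKFB2 and GYS1. It gave 5 that fell, without PDK2 (80 on day 11 and 46 on day 21) and with PFKFB3 (518 and 240) and PYGB (704 and 276). By the stated steps, the change of medium, the OSM step and 8 days of culture lie between these libraries and cannot be told apart. By the labels both libraries had OSM.

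Between the ends of the course, 5 of 30 members were higher on day 21 than on day 0 (23.9% of all genes) and 11 lower (26.4%). PFKP, PFKFB3, PFKFB4, ALDOC and PC were higher. HK1, GPI, ALDOA, GAPDH, PGAM1, ENO1, LDHB, PDHB, DLAT, PDK3 and G6PC3 were lower. Scaling each library by its median of ratios raised the log2 differences of this comparison by 0.19 and gave 8 higher (28% of all genes) and 8 lower (21.8%), so that the balance between the directions depends on the scaling, while HK1, GPI, ALDOA, GAPDH, ENO1, LDHB, PDHB and G6PC3 were still counted as lower. PDK3 stayed past 2-fold lower (-1.43) but no longer reached the minimum of 50.

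**Figure D3:**
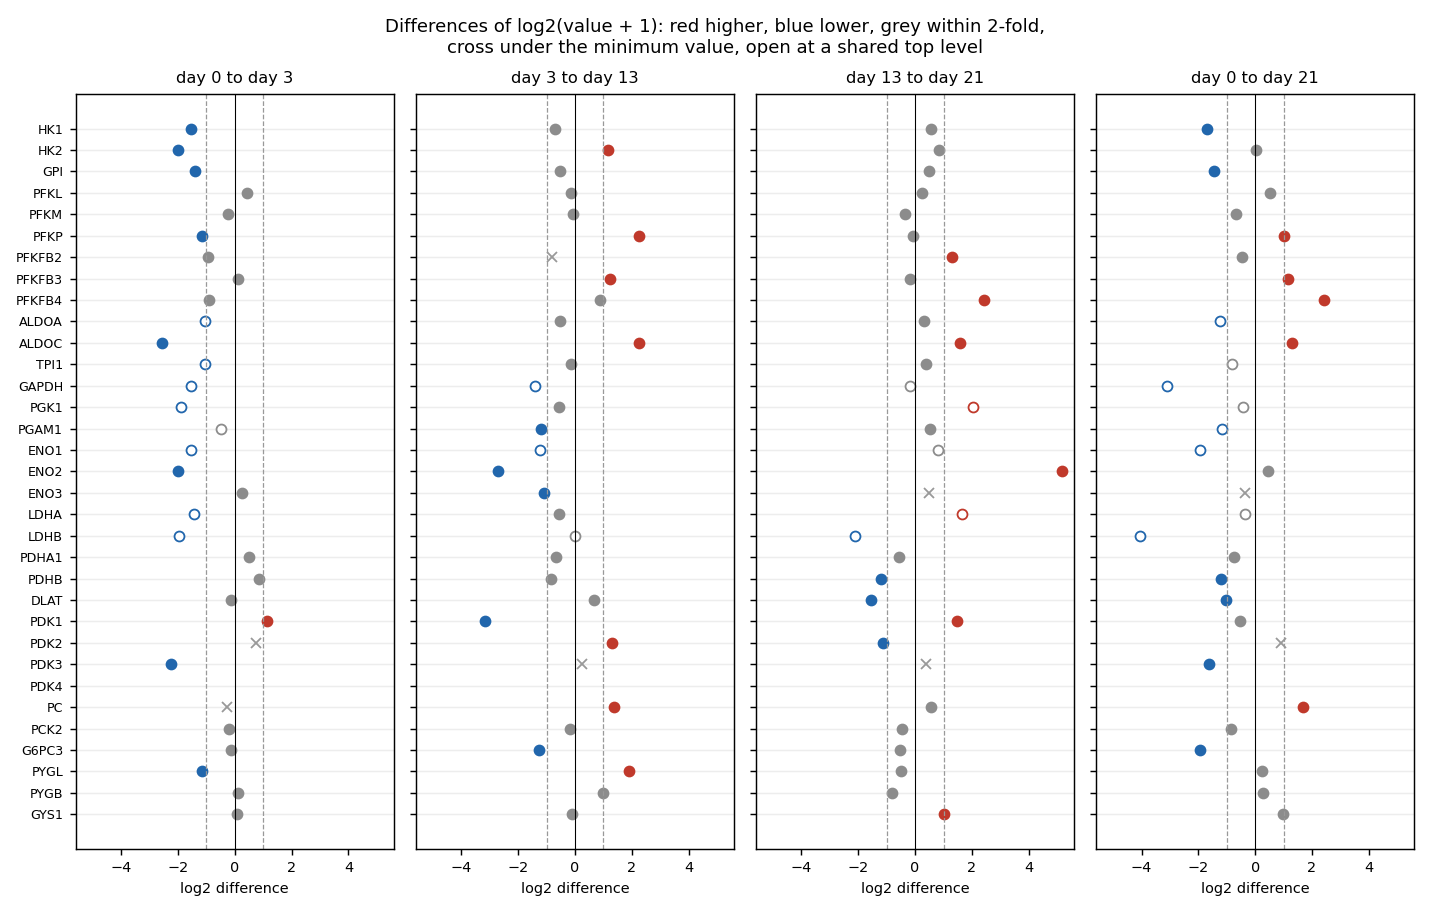
Difference of log2(value + 1) between 2 days (x axis) for each of the 33 genes (y axis), in the 4 planned comparisons; red points are higher and blue points lower by at least 2-fold, grey points are within 2-fold, crosses mark genes under the minimum value of 50, and open points have a value at a shared top level. PDK4, listed at 0 on some days, is not drawn; in the first panel 15 points are blue and 1 is red, and in the third ENO2 lies at 5.15.

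Some members were higher at both ends than over most of the days between. Days 0 and 21 were each at least 2-fold above the median of days 5 to 13 for 5 of the 33 members, HK2, PGK1, ENO2, LDHA and PDK1, and for 1.84% of all genes. This rule was chosen after the values were seen, and its members are given as a description. PGK1 (ENSG00000102144) had values of 6496 on day 0, 1279 on day 1, the lowest shared level on day 2, 1734 on day 3, 1250 and 853 on days 5 and 7, 1185, 1130 and 1185 on days 9 to 13, and 4858 on day 21. With its median of 1185 over days 5 to 13, PGK1 lay 2.03 below the lower end on the log2 scale. PDK1 differs from the other 4 in that its highest values fell on days 1 to 3, and ENO2 in that its value on day 5 (470) was near that on day 0. The pattern rests on the day 0 library, since with day 2 in its place 2 members met the rule, LDHA and PDK1.

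Upstream sequence is shown for PGK1, LDHA and ENO2, which met this rule, and for LDHB, which moved against LDHA. The 250 bases before the RefSeq start are given 5′ to 3′ on the strand of the gene, in GRCh38.p14, whose coordinates differ from those in the deposited table, and capitals mark the motif ACGTG on either strand. This is the core that hypoxia-inducible factors bind, and where the motif overlaps itself on both strands (CACGTG) it is the E-box that MYC and the carbohydrate response factor bind. The windows are chrX:78103998-78104247 (plus strand) for PGK1, chr11:18394313-18394562 (plus) for LDHA, chr12:6914330-6914579 (plus) for ENO2 and chr12:21657843-21658092 (minus) for LDHB.
PGK1: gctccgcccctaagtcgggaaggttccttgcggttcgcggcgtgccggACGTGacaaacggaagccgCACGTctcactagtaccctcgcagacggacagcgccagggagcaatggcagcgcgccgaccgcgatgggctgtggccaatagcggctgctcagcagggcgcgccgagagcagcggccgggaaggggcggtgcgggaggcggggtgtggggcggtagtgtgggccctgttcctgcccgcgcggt
LDHA: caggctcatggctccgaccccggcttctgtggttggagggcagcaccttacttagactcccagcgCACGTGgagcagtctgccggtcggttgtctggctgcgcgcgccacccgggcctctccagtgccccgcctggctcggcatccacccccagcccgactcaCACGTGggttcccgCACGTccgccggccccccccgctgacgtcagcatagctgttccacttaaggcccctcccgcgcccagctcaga
ENO2: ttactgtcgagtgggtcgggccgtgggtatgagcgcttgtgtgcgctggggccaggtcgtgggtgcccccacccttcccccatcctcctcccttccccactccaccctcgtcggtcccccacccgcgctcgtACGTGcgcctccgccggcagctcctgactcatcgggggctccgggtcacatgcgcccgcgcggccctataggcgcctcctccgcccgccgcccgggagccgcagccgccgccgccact
LDHB: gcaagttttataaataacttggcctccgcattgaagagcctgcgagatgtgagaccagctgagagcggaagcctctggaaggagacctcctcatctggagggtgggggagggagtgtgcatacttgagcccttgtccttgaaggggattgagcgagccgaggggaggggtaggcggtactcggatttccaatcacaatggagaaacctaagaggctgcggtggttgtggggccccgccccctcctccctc
Counting both strands, with CACGTG as 2 matches, the window of LDHA held 5 matches, that of PGK1 2, that of ENO2 1 and that of LDHB 0. An upstream window was found for 32 of the 33 members, and 13 of these (40.6%) held at least 1 match, against 18.7% of 27305 promoter windows of the same length. Of the members that rose from day 13 to day 21, 4 of the 7 with a window held a match, and of those that fell, 2 of 4. A match describes these letters only. HK2 held 2 matches and PDK1 0, although both met the rule above. For each gene only the window of the first listed start was read, so matches before any other start are not counted.

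The other genes of the pathway were read from a list of 43 names, of which 26 were in the table. From day 0 to day 3, 3 of 22 tested rose and 3 fell, beside 11.1% and 9.07% of all genes. From day 3 to day 13, 2 of 22 rose and 4 fell, beside 16.5% and 15.9%. From day 13 to day 21, 6 of 22 rose and 1 fell, beside 8.57% and 9.08%. Between day 0 and day 21, 6 of 23 rose and 3 fell, beside 23.9% and 26.4%, so that the share that rose was near that of all genes. The glucose transporters SLC2A1 and SLC2A3 moved in opposite directions between day 0 and day 3. SLC2A1, the basal transporter, had 1492 on day 0, 726, 332 and 228 on days 1 to 3, 629 and 902 on days 5 and 7, 1737, 2434 and 1736 on days 9 to 13, and 2970 on day 21. SLC2A3, the high-affinity transporter of neurons, went from 2969 on day 0 to 2430 and 6495 on days 1 and 2, was at 18734 from day 3 to day 7, and was at 3862 on days 13 and 21. SLC2A1 was thus lowest on day 3, when SLC2A3 first reached the top level. SLC2A2, the transporter of hepatocytes, was listed at 0 on day 21 and on all days up to day 7, with 54, 37 and 43 on days 9, 11 and 13.

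Export of lactate, an alternative hexokinase and glycogen metabolism had members among the genes that changed. SLC16A3, a monocarboxylate transporter that exports lactate, had 144 on day 0, 16 on day 1, 72 on day 3, 293 on day 13 and 873 on day 21 (log2 difference of 1.57 from day 13). HKDC1, a hexokinase-like gene, was at or below 47 up to day 13 and at 314 on day 21 (3.01). GBE1, the branching enzyme of glycogen, PPP1R3B, a hepatic subunit of the phosphatase that activates glycogen synthase, and PGM1, phosphoglucomutase, also rose from day 13 to day 21, by 1.48, 1.74 and 1.43. UGP2, which makes the UDP-glucose for glycogen, fell early, from 2429 on day 0 to 576 on day 3, and had 312 on day 13 and 378 on day 21. DLD, a component that the pyruvate dehydrogenase complex shares with others, fell from 490 on day 13 to 240 on day 21 (-1.03).

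Genes outside the pathway that are known to respond to hypoxia were read beside the members. Of 13 listed genes 11 were in the table. From day 0 to day 1, 7 of the 10 tested fell (4.71% of all genes) and 0 rose, with a median log2 difference of -1.29. From day 13 to day 21, 8 of 11 rose (8.57% of all genes) and 0 fell, with a median of 1.29. In the same intervals the medians of the members were -0.58 and 0.34, and those of all genes 0.01 and -0.05. DDIT4 went from 462 on day 0 to 37 on day 1, and from 125 on day 13 to 668 on day 21. BNIP3 went from 497 to 58 and from 249 to 599 over the same days. NDRG1 went from 518 on day 13 to 2800, a shared top level, on day 21. From day 0 to day 3, 2 of the 9 hypoxia-response genes tested fell (9.07% of all genes) and 0 rose. Their median was -0.62, whereas 15 of the 30 members tested fell, with a median of -0.99. From day 3 to day 13, when the members split evenly, 7 of the 10 hypoxia-response genes tested rose (16.5% of all genes) and 1 fell. Between day 0 and day 21, 9 of 11 rose (23.9% of all genes) and 0 fell, with a median of 2.24, whereas 5 of the 30 members tested rose and 11 fell, with a median of -0.60. The labels give no oxygen level.

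**Figure D4:**
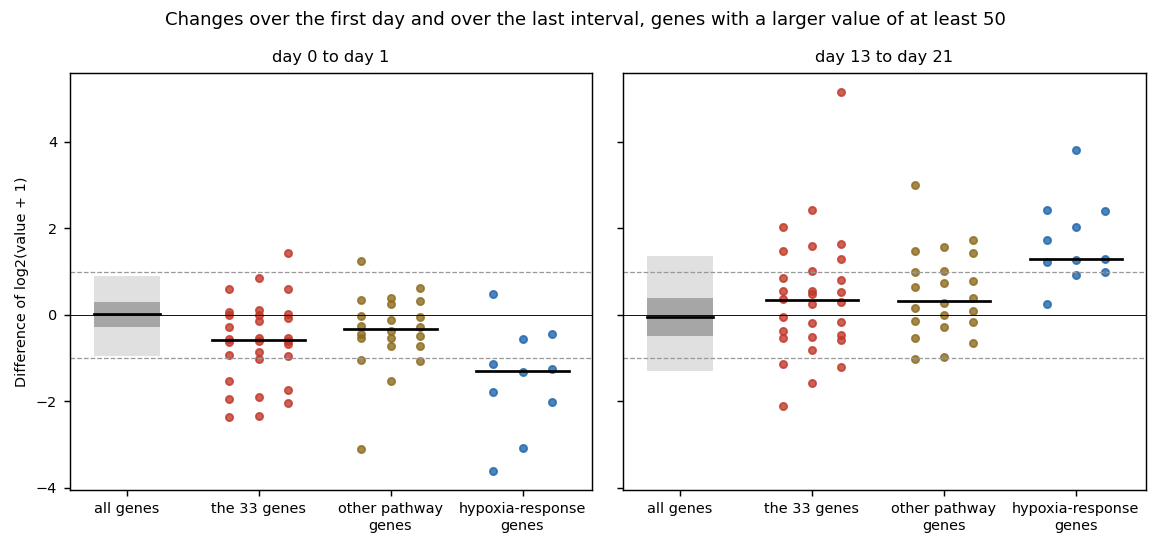
Difference of log2(value + 1) (y axis) from day 0 to day 1 (left) and from day 13 to day 21 (right) for genes with a larger value of at least 50; grey bars give the middle 90% (light) and 50% (dark) of all genes, points are single genes of the 3 lists, and black lines are medians. The hypoxia-response genes have medians of -1.29 and 1.29, and the 33 genes of -0.58 and 0.34.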

How the data were processed

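RNA of 10 bulk libraries of H1 cells, 1 per day, was sequenced by the authors on a MiSeq. They aligned the reads to an Ensembl transcriptome with Bowtie2 2.2.0 and RSEM 1.2.17 with a GC normalization by EDASeq. The submitters' processing notes name the builds mm10 and hg19 without their roles. The values that the authors deposited are scores, whole numbers per gene that are neither counts nor corrected for length, so a normalization that gives all libraries nearly 1 distribution can hide a change shared by most genes, and the values do not show how deeply each library was sequenced.

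Each column was matched to its day by its name and the sample title. Members were matched by gene symbol. The members and gene lists were chosen with earlier results of these data known. Log2(value + 1), on which changes of low values look smaller than they are, and its differences were computed with Python 3.11.15, numpy 2.4.6 and pandas 2.3.3, and plots with matplotlib 3.10.9. Genes past 2-fold with a larger value of at least 50 were counted. The counting was tested on simulated data. All matched members are named, and the other pathway genes that are named passed the fold in a planned comparison. The exceptions are PDHX and the transporter SLC2A2, which were added after their values were seen. The planned comparisons were days 0 to 3, 3 to 13, 13 to 21 and 0 to 21. The alternatives were pseudocounts of 0.1 and 5, scaling by the median of ratios, other minimum values, leaving out top levels, and neighbouring days. Upstream sequences are those of RefSeq for GRCh38.p14, and pseudogenes those of GENCODE release 29. Columns of the table that hold other samples numbered 0.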

Additional observations from a re-analysis of the deposited data

How the results depend on the processing

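Of 66 alternative counts of members higher or lower, 61 lay within 1.5 times the count given above. Another 201 alternative values, with other pseudocounts or scaling, cover only single members already counted as higher or lower. Of these 0 changed sign, but such settings move a difference of at least 1 too little to turn it, so this is no support. Leaving out genes at the shared top levels lowered the members that fell from 15 to 8 (day 0 to day 3), from 11 to 6 (day 0 to day 21) and from 8 to 4 (day 0 to day 1), and those high at both ends from 5 to 3, since it removes genes by construction. With day 2 for day 3, 0 in place of 1 rose from day 0, and with day 2 for day 0, 2 members were high at both ends. Scaling by the median of ratios moved the members higher on day 21 than on day 0 from 5 to 8. PFKFB4 gained on PFKFB3 by 1.24 with a pseudocount of 5. The other 17 of 18 alternative isozyme ratios moved by less than the same ratio did between days 9 and 11. No paired analysis was possible because each day has 1 library, and for the same reason no library could be left out of a day. Every change from day 0 rests on a single library.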

Other observations

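Regulators of glucose metabolism, from a list of 14 names of which 13 were in the table were read as well. From day 0 to day 21, 5 rose and 5 fell of the 13 tested, beside 23.9% and 26.4% of all genes. From day 0 to day 3, 0 of 9 rose and 1 fell, from day 3 to day 13, 4 of 12 rose and 3 fell, and from day 13 to day 21, 0 of 12 rose and 2 fell, beside 11.1% and 9.07%, 16.5% and 15.9%, and 8.57% and 9.08% of all genes. EPAS1, which encodes a hypoxia-inducible factor, was at 47 or below up to day 5 and between 770 and 1002 from day 7 on, whereas HIF1A stayed between 634 and 1735 with its highest value on day 7. MYC, a transcription factor that many glycolytic genes respond to, had 466 on day 1 and between 6 and 38 from day 5 to day 21. TXNIP, which restrains glucose uptake, had 111 on day 0, 20 on day 3, 1216 on day 13 and 852 on day 21.

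Genes of the mitochondrial pyruvate carrier and of TIGAR are listed under older names and were chosen after their values were seen. BRP44 (MPC2) went from 33 on day 0 to 88 on day 3, 576 on day 13 and 382 on day 21. BRP44L (MPC1) was between 12 and 51 throughout. C12orf5 (TIGAR), a phosphatase that opposes glycolysis, was highest on day 5 (93) and 11 on day 21.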
